A study of Mus musculus with 6 samples.

Results

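Mitosis is driven by a small set of regulators that cells make mostly in G2 and destroy at the end of division, and their transcripts were followed here in starved and control cells. The set lists 42 mouse genes for mitotic kinases, cyclins, the anaphase-promoting complex (APC) and cytokinesis. 38 of them, among 12393 genes measured, had at least 1 probe set that the platform annotation maps to that gene alone, and where several did, the brightest on average stands for the gene. Ccnb1, Cdca8, Fbxo5 and Espl1 had no such probe set and were not analysed here. The set also holds 2 transcription factor genes and 5 genes for spindle, chromosome and proliferation proteins, and it holds no core subunit of the APC. All 38 had a mean level above 5 (log2), the limit used here for dim probe sets, so 0 members were lost to it.

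Total RNA came from a cultured mouse line called PPP3R1 and was hybridised to 6 arrays. 3 arrays held RNA of the line after 6 h of starvation and 3 arrays held RNA of the control, which the titles and the series design call the same line in normal medium. The growth and treatment protocols instead name wild-type mouse embryonic fibroblasts as the control, so a difference between cell lines and the effect of starvation cannot be told apart if the protocols are right. Calcineurin B has the same gene symbol, but how this gene was altered in the line, if at all, and whether the line is a clone are not given in the labels. Replicates are described as biological in the titles, with no word on separate cultures, so p-values measure only the spread between these samples, which may be technical. No age, sex or animal strain of the cells, and no composition of the starvation medium, is given in the sources used here.

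Entry into mitosis depends on the kinase Cdk1 bound to cyclin A or cyclin B. Wee1 and Myt1 hold the complex inactive by phosphorylation, and the CDC25 phosphatases release it. Aurora and Polo kinases then build the spindle, and the APC, a ubiquitin ligase, ends mitosis by marking cyclins and securin for destruction, after which the cell is cut apart in cytokinesis. Fibroblasts deprived of growth factors usually stop dividing, and these transcripts are common markers of proliferation.

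Values below are RMA levels on the log2 scale, where a step of 1 is a doubling, and changes are starved minus control with the standard error of limma and n = 3 arrays per group. A gene was called when its limma p, adjusted over all 22626 probe sets tested, was below 0.05. Of the 38 members 36 rose, 1 fell (Cdc25a) and 1 was not called (Pkmyt1), where 20.8% of all genes were called higher, 20.1% lower and 40.8% in either direction. The median change of the members was 1.30, a 2.47-fold rise, against -0.01 over all genes. 27 members rose by at least 1, as 1.71% of all genes did. In 37 members every starved array lay above every control array, which was so in 26.3% of all genes, and in Cdc25a every starved array lay below. The groups thus overlapped in 0 members, while they lay apart in 52.5% of all genes. Ranked by rise among all genes, 19 members stood within the highest 100 and 30 within the highest 300. Each array measures a pool of cells, so a larger share of cells in G2 and mitosis and more of these transcripts per cell cannot be told apart. The plot of levels by array shows how far the groups lie apart in each member.

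**Figure D1:**
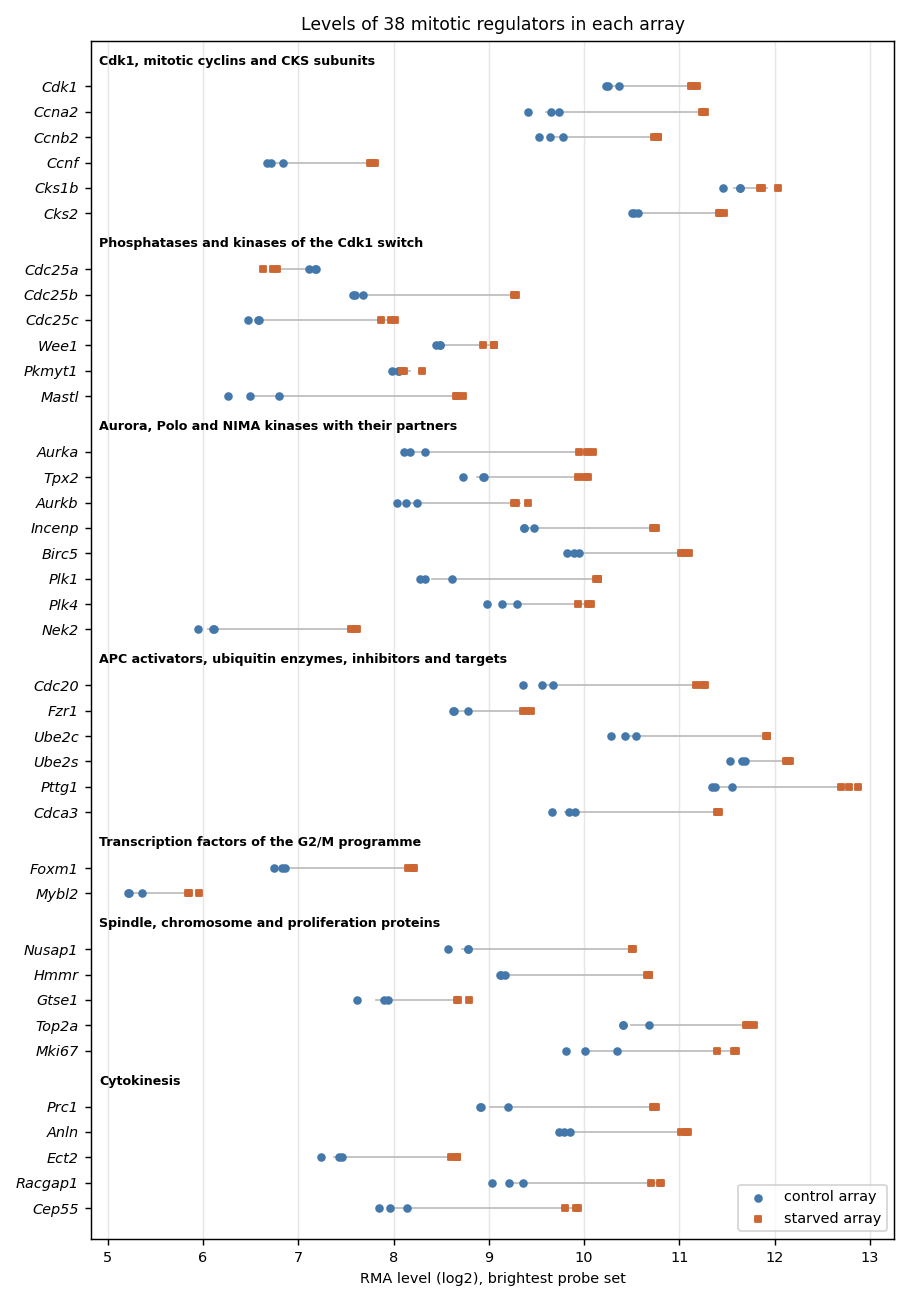
RMA level (log2, horizontal axis) of the brightest probe set of each of 38 members, by role, in 3 control arrays (circles) and 3 starved arrays (squares), with a grey line between the group means. The starved arrays lie to the right in 37 members, and in Cdc25a they lie to the left; the groups come closest in Pkmyt1.

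Over all probe sets the correlation was 0.9977 to 0.9982 within groups and 0.9864 to 0.9884 between them. As a check of cell type, 14 measured fibroblast markers had a mean level of 11.26 to 11.29 in control and 10.99 to 11.03 in starved arrays, with 4 called higher and 5 lower, Thy1 near background (mean 4.84), and Fap (-2.26 ± 0.13) and Lum (-2.05 ± 0.06) falling most. Their part in the results was not tested. Mean levels were 4.18 to 4.43 for 7 epithelial markers, 4.63 to 4.88 for 7 leukocyte markers and 3.76 to 4.08 for 5 endothelial markers. The ranges of the groups overlapped, and 1, 2 and 1 genes were called higher. The defining genes Epcam (4.48), Ptprc (3.05) and Cdh5 (4.24) were near background. Other markers lay above 5, Krt8 (5.09) and Krt19 (5.37) of the epithelial list and Csf1r (6.18), Lyz2 (6.19) and Cd68 (6.47) of the leukocyte list. Cd68 and Lyz2 were the leukocyte markers called higher. The source of these signals was not tested. The mean of 6 neural and glial markers was 5.19 to 5.24 in control and 5.38 to 5.44 in starved arrays, with 2 called higher (Tubb3 and Map2) and Gfap near background (4.33). The difference between 3 prime and 5 prime probe sets of Gapdh, a sign of RNA quality, was -0.11 to 0.00 in control and -0.15 to -0.11 in starved arrays and did not overlap, while that of Actb was 0.03 to 0.08 in both. The part of this small shift in the results was not tested.

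The promoters of the members were also examined. Many genes of late cell cycle carry a cell cycle genes homology region (CHR), bound by the MuvB complexes with B-Myb and FoxM1 or with the repressive DREAM proteins, close to boxes bound by the factor NF-Y. RefSeq promoters (GRCm38.p6) of 300 bases, from 250 before to 50 after the start site, were in the table for 30 of the 38 members, 34 promoters in all. They were searched on both strands for the CHR (TTTGAA), a variant of it (TTCGAA), the NF-Y box (CCAAT) and the core of an E2F site (TTTGGCG or TTTCGCG). Other forms were not searched, so a promoter said to have no CHR had no match to TTTGAA or TTCGAA. The CHR or its variant was in 64.7% of the 34 member promoters, in 19.2% of all 32851 promoters and in 14.6% of the 12567 promoters of genes on the array. Within 50 bases of the start site the shares were 58.8%, 5.3% and 3.7%. A CCAAT box was in 73.5%, 37.4% and 37.1%, and 2 or more boxes were in 17 of the 34, in 11.7% and in 13.1%. Both a CHR or variant and a CCAAT box were in 52.9%, 7.5% and 5.8%, and an E2F core in 8.8%, 2.4% and 3.6%. Of the 100 matches in member promoters 1 pair overlapped within a promoter, 2 CCAAT boxes on opposite strands in Ube2c. Cep55, Ect2, Gtse1 and Prc1 each have 2 promoters that share bases. Sites in the shared bases were counted in both, in the 100 matches and in the shares. A match is a string of letters and not a measured binding site. The shares are a property of the listed genes and would be the same whatever the arrays showed. Any part of the motifs in the change was not tested.

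**Figure D2:**
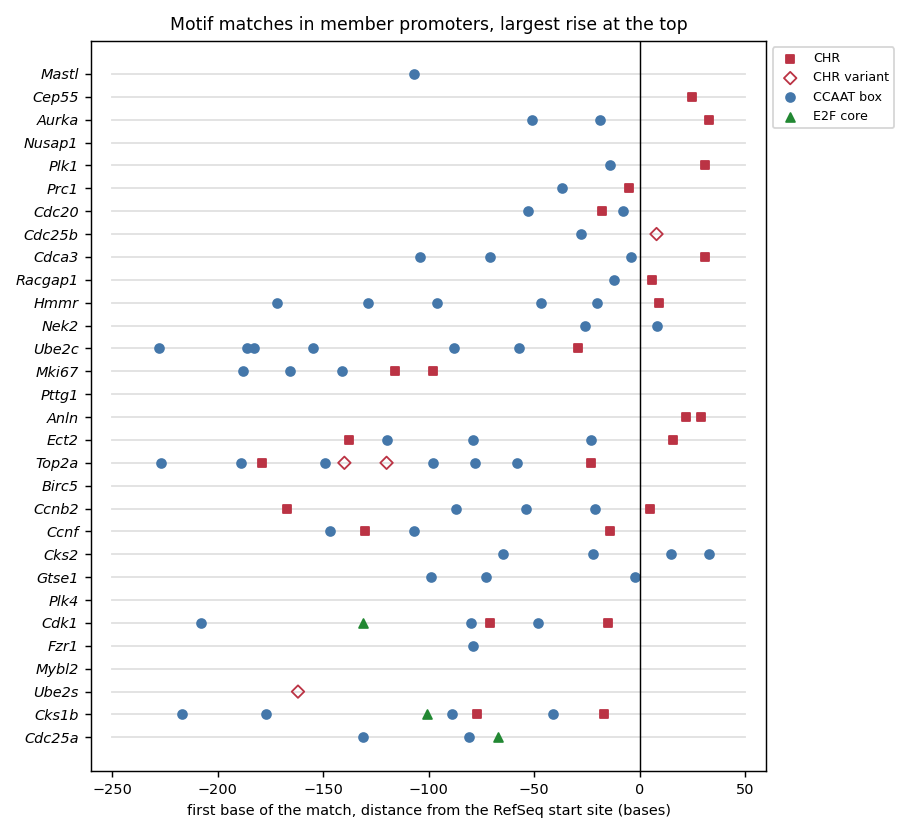
Matches of 4 motifs on either strand in the RefSeq promoters of 30 members, with the largest rise at the top; the horizontal axis is the distance of the first base of a match from the start site, and of members with several promoters the one with the lowest coordinate is drawn. The CHR (squares) had a median position of -17 and the CCAAT boxes (circles) of -79, over all 34 promoters. In these medians a site shared by several promoters of a gene counts in each.

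Members with a CHR or its variant (19) had a median change of 1.497 and a range of 0.34 to 1.90. The 11 members whose promoters held neither had a median of 0.91 and a range of -0.44 to 2.16, and the 8 members with no promoter in the table had a median of 1.26 and a range of 0.14 to 1.65. These medians are a description of chosen genes and were not tested. The ranges of the 3 groups of genes overlap widely. The largest rise (Mastl) and the fall of Cdc25a were both in members without a match to the CHR or its variant.

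All 6 measured genes for Cdk1, its cyclins and the CKS subunits rose, with a median change of 0.97. Cdk1, the kinase that triggers mitosis, was at 10.23, 10.25 and 10.37 in the control arrays and 11.12, 11.18 and 11.14 in the starved arrays. Every starved array was above every control array, as was so in 26.3% of all genes. The means were 10.28 ± 0.08 in control and 11.15 ± 0.03 in starved arrays (SD, n = 3), a rise of 0.87 ± 0.06 or 1.82-fold (limma adjusted p = 2.71e-05). Ccna2, which encodes the cyclin A of S phase and G2, was at 9.41, 9.66 and 9.74 in control and 11.23, 11.26 and 11.27 in starved cells. The control arrays were spread over 0.17 (SD) and the starved arrays over 0.02, and the rise of 1.65 ± 0.09 (3.15-fold, adjusted p = 8.10e-06) was the largest among these genes. Its second probe set rose by 1.75 ± 0.09.

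Ccnb2, a B-type cyclin and partner of Cdk1, was at 9.53, 9.64 and 9.78 in control and 10.78, 10.78 and 10.73 in starved cells, a rise of 1.11 ± 0.07 (2.16-fold, adjusted p = 2.00e-05). Ccnf, whose product is the substrate receptor of a ubiquitin ligase and not a partner of a CDK, doubled with a rise of 1.03 ± 0.06 (adjusted p = 1.35e-05). The CKS proteins dock Cdk1 to its substrates, and their genes rose by unequal amounts. Cks2 went from 10.53 ± 0.03 to 11.44 ± 0.03 (SD), a rise of 0.91 ± 0.05, and Cks1b from 11.57 ± 0.10 to 11.92 ± 0.10, a rise of 0.34 ± 0.08 (adjusted p = 0.00932) that was the smallest called rise of all members. The second probe sets rose too, that of Cks2 by 1.05 ± 0.09 and that of Cks1b by 0.51 ± 0.06.

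The promoters of Cdk1, Ccnb2 and Cks1b are shown because each holds the CHR together with CCAAT boxes. Each sequence runs 5′ to 3′ on the strand of the gene from 150 bases before to 30 after the start site, with capitals for matches to the CHR (TTTGAA or TTCAAA), the CCAAT box (CCAAT or ATTGG) and the E2F core.
Cdk1 (chr10:69352883-69353062, minus strand): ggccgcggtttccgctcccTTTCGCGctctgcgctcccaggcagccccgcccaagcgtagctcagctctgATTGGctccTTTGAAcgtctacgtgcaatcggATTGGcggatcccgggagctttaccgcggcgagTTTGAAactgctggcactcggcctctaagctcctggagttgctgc
Ccnb2 (chr9:70421525-70421704, minus strand): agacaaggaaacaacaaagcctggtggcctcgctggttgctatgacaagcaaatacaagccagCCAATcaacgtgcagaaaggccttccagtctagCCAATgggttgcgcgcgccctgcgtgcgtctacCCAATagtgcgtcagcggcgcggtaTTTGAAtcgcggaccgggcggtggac
Cks1b (chr3:89418262-89418441, minus strand): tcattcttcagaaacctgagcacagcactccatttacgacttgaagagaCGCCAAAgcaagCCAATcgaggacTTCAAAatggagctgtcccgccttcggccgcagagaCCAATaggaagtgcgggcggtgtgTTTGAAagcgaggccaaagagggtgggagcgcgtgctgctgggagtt
In these windows Cdk1 had the CHR at -71 and -15, CCAAT boxes at -80 and -48 and an E2F core at -131. Ccnb2 had 3 CCAAT boxes at -87, -54 and -21 and a CHR at 5 bases past the start site. Cks1b held the same 3 kinds of match as Cdk1, with the CHR at -77 and -17, CCAAT boxes at -89 and -41 and an E2F core at -101.

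Genes that switch Cdk1 on or off did not move as 1 group: 4 of 6 rose, Cdc25a fell and Pkmyt1 was not called (median change 0.97). The 3 CDC25 phosphatases all remove inhibitory phosphates from CDKs, Cdc25a at the start of S phase as well as in mitosis. Cdc25a was at 7.18, 7.12 and 7.18 in control and 6.73, 6.78 and 6.63 in starved cells. This fall of 0.44 ± 0.06 (adjusted p = 0.000747) was matched in its dimmer probe set (-0.33 ± 0.07). Cdc25b was at 7.57, 7.68 and 7.59 in control and 9.27, 9.28 and 9.29 in starved cells, a rise of 1.66 ± 0.06 (3.17-fold, adjusted p = 1.57e-06). Cdc25c rose by 1.40 ± 0.06 (2.65-fold), from 6.55 ± 0.06 to 7.95 ± 0.08 (SD). The groups did not overlap in any of the 3 genes, as was so in 52.5% of all genes. Cdc25a moved opposite to Cdc25b and Cdc25c.

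Wee1, the nuclear kinase that inhibits Cdk1, rose by 0.54 ± 0.06 (1.46-fold, adjusted p = 0.000221). Pkmyt1, which encodes the membrane-bound inhibitory kinase Myt1, was at 8.06, 8.05 and 7.98 in control and 8.11, 8.30 and 8.09 in starved cells. The change of 0.14 ± 0.07 did not pass (adjusted p = 0.176). Its dimmer probe set, at 7.47 in control and 8.29 in starved cells, rose by 0.82 ± 0.07. When both probe sets were averaged the change was 0.48 and passed, with an adjusted p of 0.000149 by limma (over all its alternatives, 0.000149 to 0.461), so the call of Pkmyt1 depends on the probe set.

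Mastl encodes Greatwall, the kinase that blocks the phosphatase PP2A-B55 during mitosis. It was at 6.50, 6.26 and 6.80 in control and 8.72, 8.66 and 8.65 in starved cells, the largest rise of the set at 2.16 ± 0.12 (4.46-fold, adjusted p = 1.12e-05) and the ninth largest of all genes. The control arrays were spread widely (SD 0.27), and the nearest control array still lay far below the starved arrays. Its other probe set went from 5.16 to 8.47, a rise of 3.31 ± 0.08, so both probe sets rose but the size is not settled.

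The promoters of Cdc25a, Cdc25b and Mastl are shown because these genes had the fall, a large rise and the largest rise. The window and capitals are as for Cdk1, and the CHR variant (TTCGAA) is also in capitals.
Cdc25a (chr9:109875429-109875608, plus strand): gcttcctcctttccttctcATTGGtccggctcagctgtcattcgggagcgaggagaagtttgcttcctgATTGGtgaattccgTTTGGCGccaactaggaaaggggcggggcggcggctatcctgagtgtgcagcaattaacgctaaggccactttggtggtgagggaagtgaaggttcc
Cdc25b (chr2:131186798-131186977, plus strand): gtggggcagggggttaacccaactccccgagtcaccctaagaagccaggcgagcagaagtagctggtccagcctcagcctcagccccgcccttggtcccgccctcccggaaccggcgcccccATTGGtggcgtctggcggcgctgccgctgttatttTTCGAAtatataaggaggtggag
Mastl (chr2:23155995-23156174, minus strand): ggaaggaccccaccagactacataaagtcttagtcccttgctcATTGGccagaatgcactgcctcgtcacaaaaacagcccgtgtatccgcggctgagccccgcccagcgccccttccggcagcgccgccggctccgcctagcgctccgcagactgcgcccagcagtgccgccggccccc
Cdc25a had 2 CCAAT boxes, an E2F core at -67 and no CHR in 300 bases. Cdc25b had the CHR variant at 8 bases past the start site and a CCAAT box at -28. Mastl had a CCAAT box at -107 and no CHR. Any part of these matches in the changes was not tested.

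All 8 measured genes for Aurora, Polo and NIMA kinases and their partners rose, with a median change of 1.26, and 7 of them by at least 1. Aurka encodes Aurora A, the kinase of centrosomes and spindle poles. It was at 8.11, 8.17 and 8.33 in control and 9.95, 10.09 and 10.02 in starved cells, a rise of 1.82 ± 0.07 (3.53-fold, adjusted p = 3.25e-06). Tpx2, whose product activates Aurora A on spindle microtubules, rose less, by 1.12 ± 0.07, and by 0.74 ± 0.08 in its dimmer probe set.

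Aurkb, Incenp and Birc5 encode Aurora B and its partners INCENP and survivin in the chromosomal passenger complex, which corrects attachments at centromeres and later acts in cytokinesis. Their rises were alike in size, 1.18 ± 0.07, 1.34 ± 0.06 and 1.17 ± 0.06. Aurkb was at 8.03, 8.13 and 8.25 in control and 9.41, 9.27 and 9.29 in starved cells. Both Aurkb probe sets can match several transcripts, the second rose by 1.11 ± 0.08, and Aurkb has no value without such probe sets. Incenp was at 9.37, 9.37 and 9.47 in control and 10.72, 10.74 and 10.75 in starved cells, and its other 2 probe sets rose by 1.24 ± 0.07 and 1.39 ± 0.06. In each of these 3 genes the lowest starved array lay more than 1 above the highest control array.

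Plk1, the Polo kinase that promotes mitotic entry and spindle assembly, was at 8.28, 8.33 and 8.61 in control and 10.14, 10.15 and 10.12 in starved cells. The rise was 1.73 ± 0.09 (3.32-fold, adjusted p = 7.18e-06), with control replicate 3 well above the other two control arrays. Plk4, which starts centriole duplication, rose by 0.88 ± 0.09 (1.84-fold), and its other probe sets by 0.97 ± 0.09 and 0.84 ± 0.07. Nek2, a kinase that separates centrosomes, was at 6.10, 5.95 and 6.11 in control and 7.62, 7.56 and 7.59 in starved cells, a rise of 1.53 ± 0.06 (2.89-fold).

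All 6 measured genes around the APC rose, with a median change of 1.43. Cdc20, the activator of the APC at the onset of anaphase, was at 9.36, 9.56 and 9.67 in control and 11.18, 11.27 and 11.25 in starved cells, a rise of 1.70 ± 0.08 (3.25-fold, adjusted p = 5.88e-06). Fzr1 encodes Cdh1, the activator that takes over at mitotic exit and in G1. It was at 8.63, 8.63 and 8.78 in control and 9.35, 9.39 and 9.44 in starved cells, a rise of 0.72 ± 0.06 (1.64-fold, adjusted p = 8.28e-05). The other 2 probe sets of Cdc20 rose by 1.58 ± 0.10 and 1.18 ± 0.07, so each of its probe sets rose by more than Fzr1 did; the difference between the genes was not tested.

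Of the ubiquitin-conjugating enzymes of the APC, Ube2c starts chains and Ube2s lengthens them. Ube2c was at 10.29, 10.43 and 10.54 in control and 11.91, 11.92 and 11.92 in starved cells, a rise of 1.497 ± 0.07 (2.82-fold). Ube2s rose by 0.51 ± 0.06 (1.42-fold, adjusted p = 0.000395) in a probe set that can match several transcripts. Its other probe set was near background in both groups, at 3.60 and 3.56 (-0.04 ± 0.10), so the rise of Ube2s rests on the first.

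Pttg1 encodes securin, the APC target that holds separase inactive. It was at 11.38, 11.34 and 11.55 in control and 12.69, 12.87 and 12.78 in starved cells, a rise of 1.36 ± 0.08 (2.57-fold), and its other probe sets rose by 1.63 ± 0.06 and 1.12 ± 0.08. Cdca3, whose product Tome-1 promotes the destruction of Wee1, rose by 1.60 ± 0.07 (3.03-fold, adjusted p = 4.37e-06), from 9.80 ± 0.12 to 11.40 ± 0.01 (SD). Its other 2 probe sets lay at 3.07 to 3.69, near background, and were not called.

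The promoters of Cdc20 and Fzr1 are shown as those of the activators with the larger and the smaller rise, in the same window and with the same capitals.
Cdc20 (chr4:118437314-118437493, minus strand): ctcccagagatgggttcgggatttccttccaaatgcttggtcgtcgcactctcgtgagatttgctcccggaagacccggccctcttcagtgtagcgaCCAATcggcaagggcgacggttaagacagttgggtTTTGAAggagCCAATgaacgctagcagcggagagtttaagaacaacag
Fzr1 (chr10:81378341-81378520, minus strand): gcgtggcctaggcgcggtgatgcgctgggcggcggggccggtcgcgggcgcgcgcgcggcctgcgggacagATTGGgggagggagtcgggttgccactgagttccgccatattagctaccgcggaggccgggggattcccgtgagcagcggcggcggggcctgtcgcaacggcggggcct
Cdc20 had the CHR at -18 between CCAAT boxes at -53 and -8. Fzr1 had a CCAAT box at -79 and no CHR. Any part of these matches in the size of the rises was not tested.

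Both transcription factor genes rose. FoxM1 and B-Myb, the product of Mybl2, act with MuvB on promoters of mitotic genes. Foxm1 was at 6.83, 6.74 and 6.86 in control and 8.15, 8.22 and 8.20 in starved cells, a rise of 1.38 ± 0.06 (2.60-fold, adjusted p = 3.40e-06). Of its other 3 probe sets, 2 rose by 0.62 ± 0.06 and 0.67 ± 0.09 and the third was near background, so the size of the rise differs by probe set. Mybl2 was at 5.21, 5.23 and 5.36 in control and 5.85, 5.85 and 5.95 in starved cells, a rise of 0.62 ± 0.06 (1.54-fold, adjusted p = 0.000191) close to the limit for dim probe sets. Its dimmer probe set differed by 0.22 ± 0.12 without passing (adjusted p = 0.195).

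All 5 genes for spindle, chromosome and proliferation proteins rose, with a median change of 1.47. Nusap1, which bundles spindle microtubules, was at 8.79, 8.57 and 8.79 in control and 10.50, 10.52 and 10.50 in starved cells, a rise of 1.79 ± 0.07 (3.46-fold), and by 0.60 ± 0.09 in a probe set under the limit of 5. Hmmr encodes a hyaluronan receptor that also binds the spindle. Its 4 probe sets rose by 1.54 ± 0.05, 1.63 ± 0.09, 1.54 ± 0.06 and 1.55 ± 0.08, and 4 of 4 were thus called higher. Gtse1, a microtubule-binding protein of G2, rose by 0.89 ± 0.09 (1.85-fold).

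Top2a, the topoisomerase that untangles chromosomes, was at 10.41, 10.40 and 10.68 in control and 11.72, 11.70 and 11.78 in starved cells, a rise of 1.24 ± 0.08 (2.36-fold). Its second probe set was near background in both groups (3.78 and 3.71) and was not called. Mki67 encodes the antigen Ki-67, a marker of proliferating cells. It was at 9.81, 10.005 and 10.35 in control and 11.58, 11.59 and 11.40 in starved cells, a rise of 1.47 ± 0.13 (2.77-fold, adjusted p = 8.43e-05). Its control arrays had the widest spread of the set (SD 0.27, as in Mastl). The groups did not overlap, as was so in 52.5% of all genes.

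All 5 genes of cytokinesis rose by more than 1, with a median change of 1.57. Prc1, which bundles the microtubules of the central spindle, was at 8.92, 8.91 and 9.20 in control and 10.76, 10.72 and 10.73 in starved cells, a rise of 1.73 ± 0.09 (3.31-fold), with 1.75 ± 0.06 in its second probe set. Racgap1 is a subunit of centralspindlin and binds Ect2, which activates the GTPase RhoA at the cleavage furrow. Racgap1 was at 9.03, 9.21 and 9.36 in control and 10.81, 10.79 and 10.71 in starved cells (1.57 ± 0.09), and Ect2 was at 7.43, 7.46 and 7.24 and at 8.66, 8.66 and 8.60 (1.27 ± 0.07).

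Anln, the scaffold of the contractile ring, went from 9.79 ± 0.06 to 11.06 ± 0.04 (SD), a rise of 1.27 ± 0.06 (2.41-fold). Cep55, which recruits the machinery that severs the midbody, was at 7.85, 7.96 and 8.14 in control and 9.93, 9.92 and 9.80 in starved cells. Its rise of 1.90 ± 0.08 (3.74-fold, adjusted p = 4.07e-06) was the second largest of the set, and its dimmer probe set rose by 2.17 ± 0.15. The plot of changes by role sets these values beside the spread of all genes.

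The promoters of Hmmr and Racgap1 are shown as those of a spindle gene and a cytokinesis gene with a CHR just past the start site, with the same window and capitals.
Hmmr (chr11:40733408-40733587, minus strand): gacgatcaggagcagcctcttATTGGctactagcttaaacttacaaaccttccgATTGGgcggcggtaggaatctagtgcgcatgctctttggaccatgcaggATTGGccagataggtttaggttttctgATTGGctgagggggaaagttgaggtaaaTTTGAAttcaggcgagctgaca
Racgap1 (chr15:99651627-99651806, minus strand): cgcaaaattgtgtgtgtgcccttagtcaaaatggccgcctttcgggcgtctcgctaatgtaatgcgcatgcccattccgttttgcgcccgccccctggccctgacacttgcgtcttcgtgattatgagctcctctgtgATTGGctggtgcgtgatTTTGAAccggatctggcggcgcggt
Hmmr had 5 CCAAT boxes, 4 of them in this window, and the CHR at 9 bases past the start site. Racgap1 had a CCAAT box at -12 and the CHR at 6 bases past the start site.

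**Figure D3:**
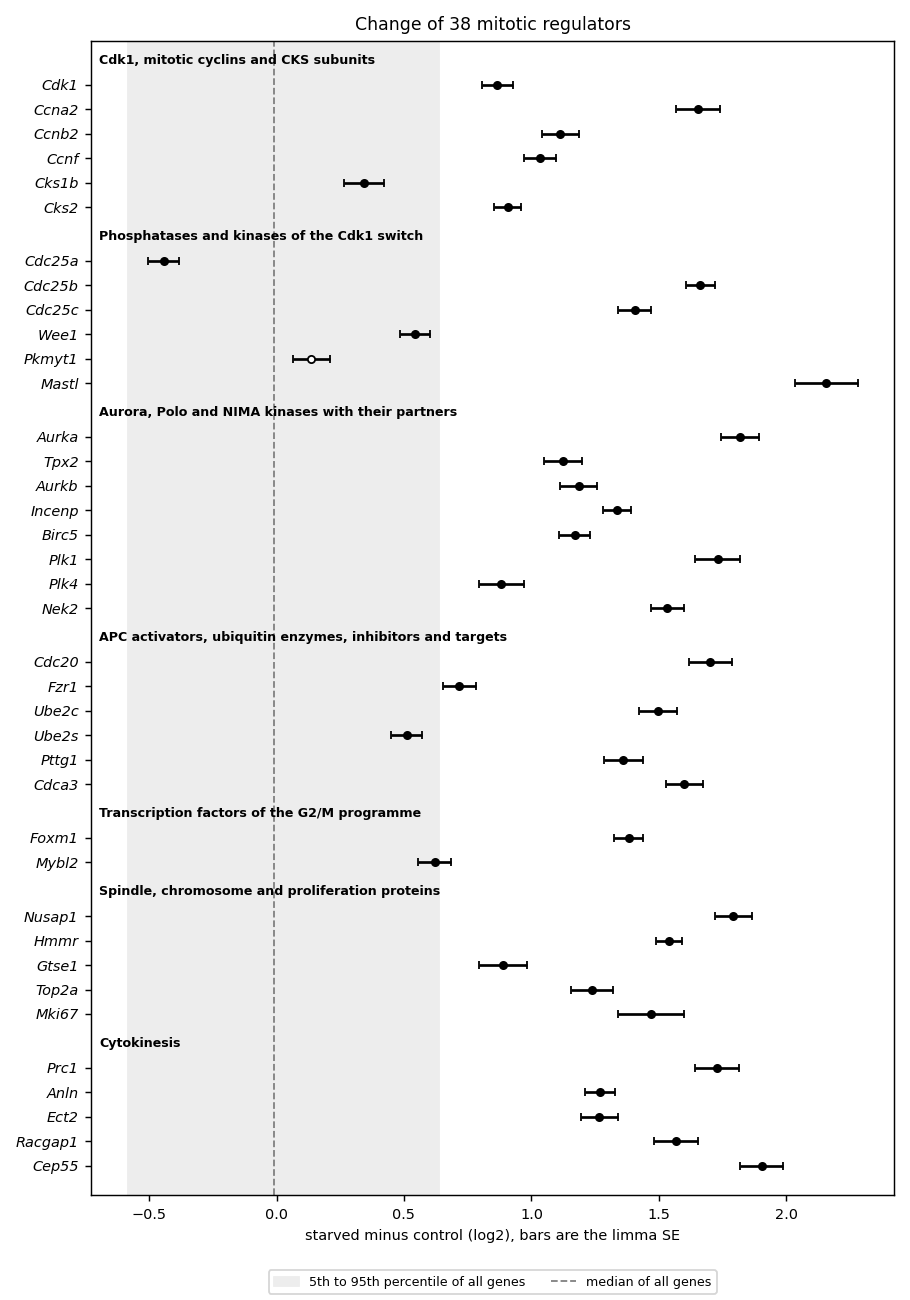
Change of each of 38 members, starved minus control (log2, horizontal axis), with the limma SE as bars; filled points were called and the open point (Pkmyt1) was not. The grey band spans the 5th to 95th percentile of all genes (-0.58 to 0.64) and the dashed line is their median (-0.01).

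Where a member had several probe sets, they mostly moved alike. Of 23 such members, 17 had the same call in each probe set, 6 had both a called and an uncalled probe set (Pkmyt1, Ube2s, Cdca3, Foxm1, Mybl2 and Top2a), and 0 had opposite calls. Of all 70 probe sets of the members 61 were called higher and 2 lower, both of Cdc25a. Of all 22626 probe sets tested, 8933 were called in either direction. The probe sets that stand for Incenp, Plk4, Pttg1 and Prc1 can match several transcripts, as those of Aurkb and Ube2s can. The other probe sets of Incenp, Plk4, Pttg1 and Prc1 were called higher too. With all probe sets of a gene averaged, dim ones included, no called member lost its call. The change was smaller by over 1.5 times in Cdca3 (0.55), Top2a (0.58), Foxm1 (0.68), Nusap1 (1.19) and Ube2s (0.23). The first 3 of these then fell below 1, and so did Tpx2 (0.93).

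The control arrays were less alike than the starved arrays in these genes. The median SD of the members was 0.11 in control and 0.04 in starved arrays, against 0.08 and 0.07 over all genes, and the SD was larger in control in 33 of 38 members (86.8%) and in 53.4% of all genes. Control replicate 3 was the highest control array in 31 members (81.6%) and in 41.5% of all genes. When each member was centred on its own mean, the median over members was -0.70, -0.68 and -0.57 in the control arrays, by replicate number, and 0.65, 0.66 and 0.66 in the starved arrays. Without control replicate 3 the median change was 1.35, and 36 members were called higher as before. The plot of deviations by array shows the shift of control replicate 3.

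**Figure D4:**
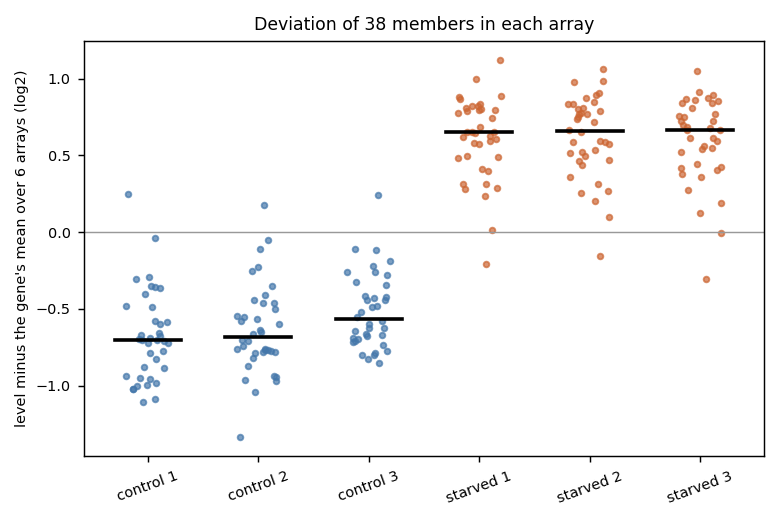
Level of each of 38 members minus its own mean over 6 arrays (log2, vertical axis) in each array, with a black bar at the median of the members. Control replicate 3 has a median of -0.57, above -0.70 and -0.68 in the other control arrays, while the starved arrays lie at 0.65 to 0.66.

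Other genes of the same pathways were taken from lists chosen by function, with earlier results of these data known. For comparison, 20.8% of all genes were called higher, 20.1% lower and 40.8% in either direction. The 18 measured genes of the spindle checkpoint and kinetochore all rose, with a median of 1.24. They included Ndc80 and Cenpe, which link chromosomes to microtubules (2.11 ± 0.06 and 2.09 ± 0.07), Cenpf (1.67 ± 0.09) and Cenpk (1.43 ± 0.07). Of 17 further genes of cytokinesis 11 rose and 1 fell, with a median of 0.28. The motor genes Kif23 and Kif20a, which work with Racgap1 and at the central spindle, rose by 2.00 ± 0.08 and 1.65 ± 0.09, the citron kinase gene Cit by 1.29 ± 0.18 and the RhoA activator gene Arhgef2 by 0.69 ± 0.05. The filament gene Septin2 (0.04 ± 0.05) and Chmp4b of the severing machinery (0.16 ± 0.06) were not called.

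Of 13 measured core subunits of the APC 4 rose, 2 fell and 7 were not called, with a median of 0.11, a share called near the 40.8% of all genes and so no result about these subunits. Anapc15 rose by 0.64 ± 0.07, Anapc1 by 0.56 ± 0.06, Anapc5 by 0.45 ± 0.05 and Anapc7 by 0.35 ± 0.06, while Anapc16 (-0.03 ± 0.06) and Cdc16 (-0.16 ± 0.06) were not called. Of 14 genes for mitotic exit phosphatases and the substrates of Greatwall, 5 rose and 1 fell, with a median of 0.11, again near the 40.8% called among all genes. The PP2A subunit genes Ppp2r5d and Ppp2r2d rose by 0.78 ± 0.05 and 0.50 ± 0.06 and Ppp2cb by 0.24 ± 0.06, Ppp2r5a fell by 0.48 ± 0.07, and Ppp1cc (0.00 ± 0.05) and Ppp2r1a (0.15 ± 0.05) were not called. Both substrates of Greatwall were singled out after their values were seen because Mastl rose most: Ensa rose by 0.16 ± 0.05 (limma adjusted p = 0.0383), and Arpp19 differed by 0.07 ± 0.05 without passing (adjusted p = 0.396).

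Of 12 genes for MuvB, DREAM, pocket proteins and NF-Y, 7 rose and 2 fell, with a median of 0.38. These counts, and those of the S phase genes below, stand beside 20.8% of all genes called higher and 20.1% lower. Rbl1, which encodes p107, rose by 1.02 ± 0.08, the MuvB gene Lin9 by 0.93 ± 0.06 and the retinoblastoma gene Rb1 by 0.90 ± 0.07. Tfdp1, the partner of E2F factors, fell by 0.67 ± 0.06, and Rbbp4 (0.12 ± 0.05) and E2f5 (-0.07 ± 0.11) were not called. Of 21 genes of replication licensing and S phase 14 rose and 1 fell, with a median of 0.52. Dbf4 rose by 0.99 ± 0.07, the helicase gene Mcm7 by 0.90 ± 0.06 and the ribonucleotide reductase gene Rrm1 by 0.85 ± 0.08, the licensing gene Cdc6 fell by 0.84 ± 0.06, and Pcna (-0.05 ± 0.06) and Slbp (-0.10 ± 0.07) were not called.

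Of 11 genes for G1 and G1/S cyclins, CDKs and E2F 7 fell and 3 rose, with a median of -0.31. Among all genes 20.1% were called lower and 20.8% higher. The E-type cyclin genes Ccne2 (-1.48 ± 0.10) and Ccne1 (-1.002 ± 0.08) and the D-type cyclin genes Ccnd1 (-0.97 ± 0.06) and Ccnd2 (-0.49 ± 0.07) fell, and E2f3 (-0.20 ± 0.07) was not called. Of 7 CDK inhibitor genes 3 rose and 0 fell (median 0.12). The share called was near the 40.8% of all genes called in either direction, of which 20.8% were called higher and 20.1% lower. Cdkn1a, which encodes p21, rose by 1.08 ± 0.05, Cdkn2d by 0.88 ± 0.06 and Cdkn2c by 0.31 ± 0.06. Cdkn1b (0.12 ± 0.08) and Cdkn1c (-0.13 ± 0.10) were not called.

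Of 10 genes for G2 and DNA damage checkpoint kinases and their stress partners 7 rose and 1 fell, with a median of 0.48. Among all genes 20.8% were called higher and 20.1% lower. Gadd45b and Gadd45g, whose products bind Cdk1 among other partners, rose by 1.64 ± 0.05 and 0.99 ± 0.06, Chek2 by 0.72 ± 0.06 and Chek1 by 0.62 ± 0.07, while Atm (0.13 ± 0.08) and Sfn (-0.23 ± 0.10) were not called. These lists are described by counts and medians alone, and differences between them were not tested.

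**Figure D5:**
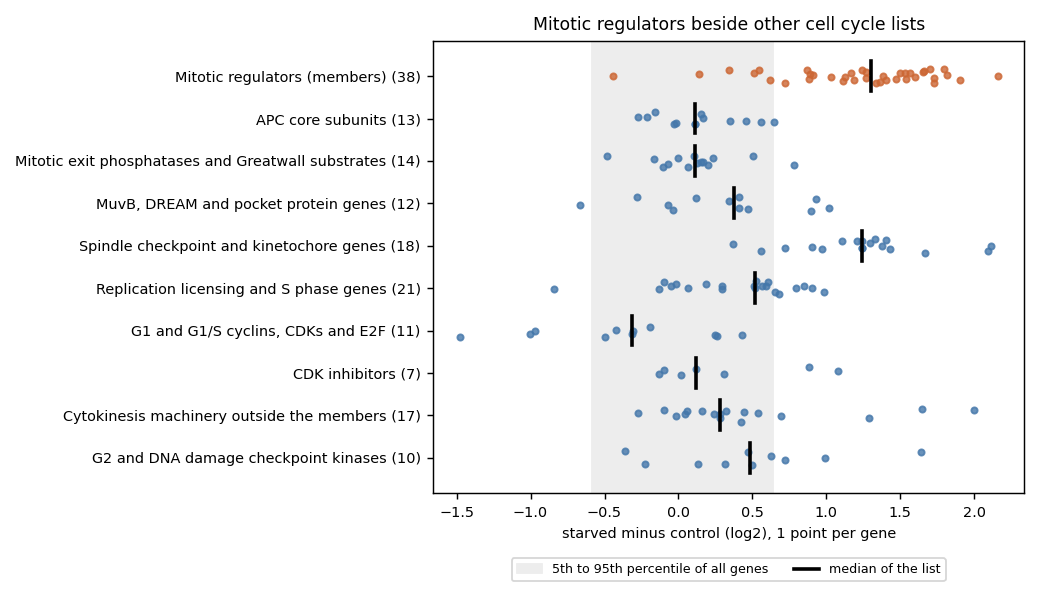
Change of each gene, starved minus control (log2, horizontal axis, 1 point per gene), for the 38 members and 9 other lists, with the number of genes measured in brackets and a black bar at the median. The medians are 1.30 for the members, 1.24 for kinetochore genes, 0.11 for APC core subunits and -0.31 for G1 and G1/S genes; the grey band spans the 5th to 95th percentile of all genes.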

How the data were processed

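Total RNA of 6 samples was measured on Affymetrix mouse arrays. The values are deposited on a log2 scale, a row for each probe set; per the submitters' processing notes, the authors ran RMA from affy, with no version given in the sources used here. RMA subtracts background, forces all arrays to the same distribution and combines probes into a probe set, so a shift of most transcripts in 1 direction would not be visible. Array medians were 6.74 to 6.78, and the table has no detection calls. Depth does not apply to arrays, and their number limits the precision.

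Of 22690 probe sets, 64 Affymetrix controls were left out and 22626 tested. The platform annotation named 1 gene for 20380, several for 691 and none here for 1555; all 38 members matched RefSeq by Entrez identifier with 0 symbols changed. Groups came from the sample titles. The contrast of starved against control was fitted in limma (3.58.1, R 4.3.3) with lmFit and eBayes, two-sided and without covariates. P-values were adjusted by Benjamini-Hochberg over the 22626, and calls needed an adjusted p below 0.05. The code was tested on simulated data. Promoters are from RefSeq (GRCm38.p6), and plots were made in Python 3.11.15 (matplotlib 3.10.9).

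The members and lists were chosen with earlier results of these data known. All members are named, and from each other pathway list the called genes that changed most in size (at most 4) and the uncalled genes of highest level (at most 2), plus defining markers of cell types. Alternatives covered dim probe sets, normalization, moderation, array weights, the choice of probe set, adjustment, thresholds, a block on replicate number and each array left out in turn. No scan dates were used here, so any batch shared by the arrays of a group and starvation cannot be told apart.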

Additional observations from a re-analysis of the deposited data

How the results depend on the processing

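Over 18 alternatives, 671 values of single members kept their direction and their side of the threshold. A further 10 kept their direction but no longer passed, 1 passed in addition, and 1 reversed in sign and also did not pass. All 10 came from the demand for a change of at least 1, under which 398 genes, 689 probe sets, 27 members higher, 0 lower and 21 genes of the other lists were called. Ube2s reversed to -0.0415 when probe sets ending in _x_at and _s_at were left out (limma adjusted p = 0.801, over its alternatives 7.57e-09 to 0.801), since its dim probe set alone is then used, and Aurkb then has no value. In the mean of a gene's probe sets Pkmyt1 passed, and while their calls held, Cdca3 went from 1.60 to 0.55, Top2a from 1.24 to 0.58, Foxm1 from 1.38 to 0.68, Nusap1 from 1.79 to 1.19 and Ube2s from 0.51 to 0.23. Leaving out any of the 6 arrays lost no member's call, with the median change of the members at 1.30 to 1.35. Same-numbered arrays did not deviate together (correlations of -0.09, 0.01 and -0.01), and with the replicate number as a block 37 members and 4624 genes were called, against 37 and 5059 without it. With the probe sets of each gene averaged, and with adjustment over 1 probe set per gene, calls were counted over genes only. Signal close to background limits the sizes given for Mybl2 and for the dimmer probe sets. It also limits those of Ccne2 and Fap (4.65 and 4.33 in starved arrays), Cit (4.96 in control arrays) and Sfn (mean 4.21).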
